A study of Homo sapiens with 6 samples.

Results

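The nuclear genes of respiratory complexes II to V were read out in HCC827 cells, a human lung adenocarcinoma line with mutant EGFR. They were chosen by name: protein-coding rows called SDHA, SDHB, SDHC, SDHD, CYC1 or CYCS, or beginning with UQCR, ATP5 or COX and a digit from 4 to 8 with a letter after it. The rule found 52 genes among the 60504 of the table, of which 44 had a mean of at least 1 TPM and entered the test. TPM is a share of a library's transcripts, corrected for transcript length and scaled to a fixed total. Such shares hold no read numbers, and sequencing depth is therefore unknown here. In the 2D group, cells of the line grew as a monolayer in uncoated flasks for 4 to 6 days before passage, with 1000000 cells passaged. In the 3D group, cells of the same line grew as tumoroids inside drops of Matrigel low in growth factors, a gel of basement membrane proteins, over 12 to 16 days, with 50000 cells seeded per droplet. Both groups had RPMI medium with fetal bovine serum, carried no other treatment or engineered allele in the labels, and gave 3 libraries each. Tumoroids were passaged with dispase and a ROCK inhibitor, so geometry, gel, time, seeding and passage differ together and cannot be told apart. Nothing in the labels ties a library to a culture of its own; p-values therefore reflect how these samples vary, and that variation may be technical.

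The respiratory chain passes electrons from nutrients to oxygen and stores the energy as a proton gradient across the inner mitochondrial membrane. Complex II, succinate dehydrogenase, feeds electrons from the citric acid cycle to ubiquinone; complex III passes them on to cytochrome c, a small mobile carrier that also triggers apoptosis when it leaves the mitochondrion. Complex IV, cytochrome c oxidase, hands the electrons to oxygen, and complex V, ATP synthase, uses the gradient to make ATP. Complex II is encoded wholly in the nucleus, whereas complexes III, IV and V combine nuclear subunits with core subunits made from the mitochondrial genome.

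The libraries correlated at 0.957 to 0.98 within groups and at 0.919 to 0.948 between them (Pearson, across tested genes, which are not replicates). Replicate 3 of 3D stood nearest to the 2D libraries, at 0.944 to 0.948, against 0.919 to 0.935 for the other 3D libraries. Epithelial and lung markers were high in every library, with the 8 of them summing to 4910 to 8808 TPM in 3D and 7691 to 9943 TPM in 2D. The 5 fibroblast markers summed to 5.50 to 10.9 TPM in 3D and 2.02 to 2.69 in 2D, nearly all of it COL1A1, with COL3A1 at 0 throughout. The 4 endothelial markers summed to at most 3.98 TPM and the 4 muscle markers to at most 0.41 TPM. The 5 leukocyte markers summed to 45.7 to 87.1 TPM in 3D and 68.7 to 96.4 in 2D, of which CD68, a lysosomal protein, gave at least 45.1 TPM and the pan-leukocyte gene PTPRC at most 0.25 TPM.

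Nearly all of the respiratory genes had lower means in 3D, and cytochrome c alone had the opposite sign in the fit reported here. Of the 44 tested genes, 43 had a negative log2 fold change, where 39.2% of all tested genes did, and 1, CYCS, a positive one. Of the 44, 6 genes (13.6%) fell past the threshold (limma on log2(TPM + 1), Benjamini-Hochberg adjusted p under 0.05 over all tested genes), where 2.12% of all 15042 tested genes did. None rose, where 10.2% of all tested genes did. By unadjusted p under 0.05 (limma), 24 were lower and 1 was higher. The share of all tested genes at that cutoff was not counted, so these counts have no background. The 3 libraries of 3D lay wholly below those of 2D in 24 genes, or 54.5%, against 9.4% of all tested genes. The median log2 fold change of the 44 was -0.41, beside 0.12 over all tested genes and -0.08 over the 1258 genes that averaged 100 TPM or more. Among those abundant genes, 58.4% had a negative value, 4.21% were called lower and 18.8% had separate groups with 3D lower. In bulk RNA, fewer cells in a given state and less RNA of a gene per cell cannot be told apart.

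**Figure D1:**
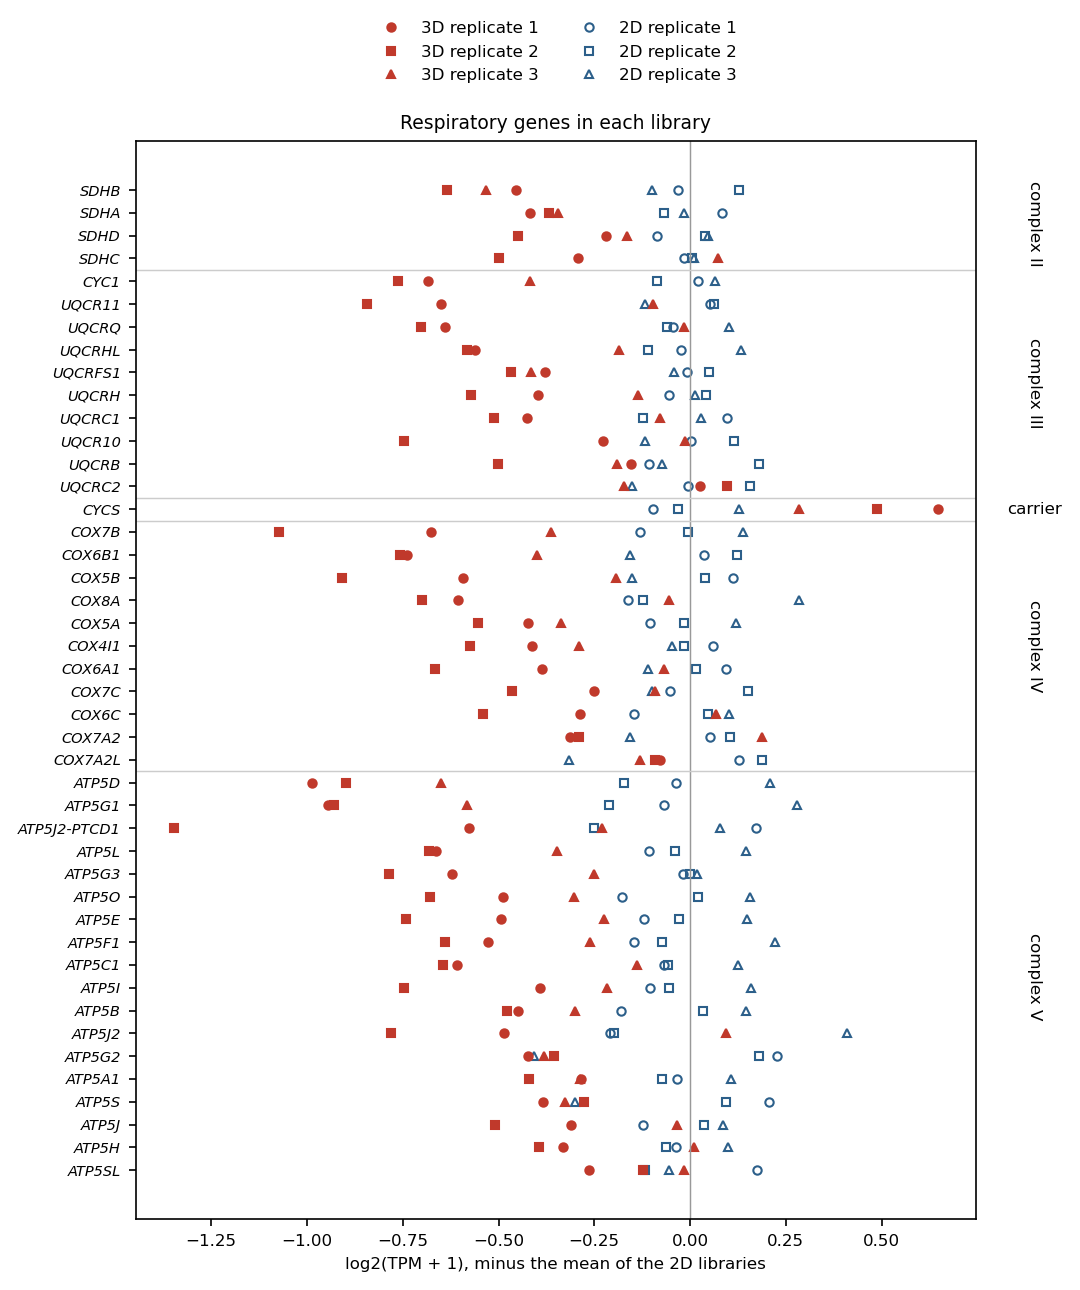
Each row is one of the 44 tested genes, with log2(TPM + 1) in each of the 6 libraries minus the mean of the 2D libraries; filled red marks are 3D, open blue marks 2D, and the shape gives the replicate number. Most red marks lie left of 0, the 3D marks of CYCS all lie to the right, and red triangles (3D replicate 3) often lie nearest to the 2D libraries.

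**Figure D2:**
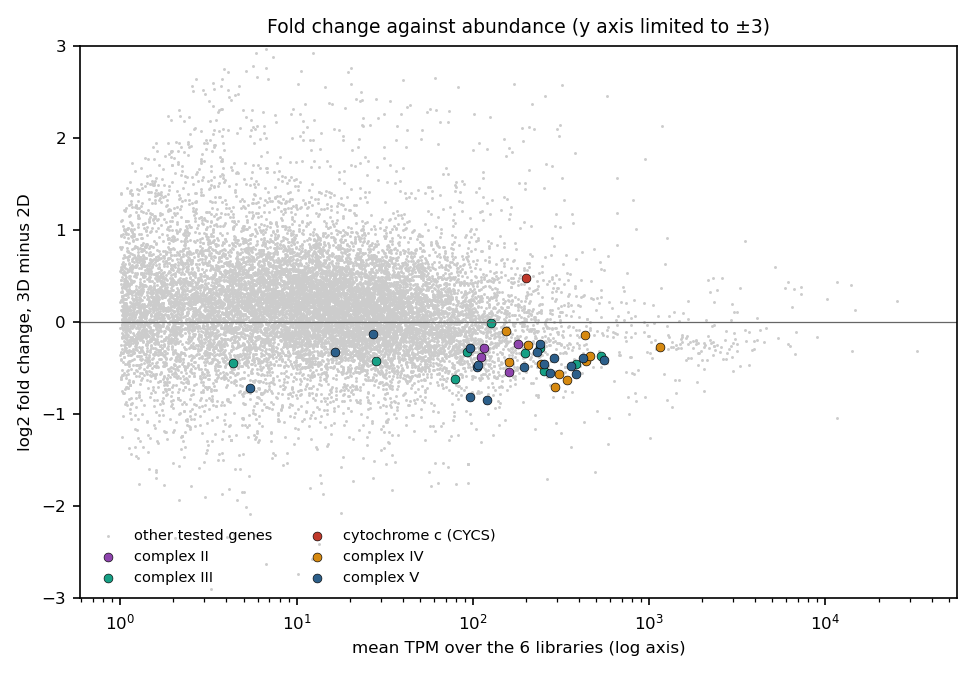
Log2 fold change (3D minus 2D, on log2(TPM + 1)) against mean TPM on a log axis for all tested genes in grey and the 44 respiratory genes coloured by complex; 57 genes beyond the limits of the vertical axis are not drawn. All coloured points lie below 0 except CYCS, and UQCRC2 lies just under the line.

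CYCS, which encodes the cytochrome c of body cells (ENSG00000172115, chr7:25120091-25125361, minus strand, GRCh38, GENCODE 29), had 261, 234 and 203 TPM in the 3D libraries and 156, 163 and 182 TPM in the 2D libraries. All 3D values lay above all 2D values, with the lowest 3D and highest 2D values both in replicate 3. The mean was 233 ± 29.1 TPM in 3D and 167 ± 13.6 in 2D (SD, n = 3 each), a difference of 39.5%. It did not pass the threshold (log2 fold change of 0.47 by limma with an SE of 0.14, adjusted p = 0.0658). The fold change was positive in each of 18 alternative analyses, at 0.32 to 0.63, with adjusted p from 0.0172 to 0.213. It passed the threshold in 2 of them, when 3D replicate 3 or both libraries numbered 3 were left out. The table also lists 40 rows named as pseudogenes of CYCS, which took 10.4 to 17.8 TPM per library, and the sum of gene and copies had means of 247 TPM in 3D and 178 TPM in 2D.

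The level of cytochrome c relative to its partners was also compared within each library. CYCS stood at 4.40, 4.16 and 2.84 times the TPM of CYC1, the cytochrome c1 subunit that hands it electrons, in 3D, and at 1.60, 1.80 and 1.81 times in 2D. Against the summed TPM of the 38 nuclear subunits of complexes II to V, CYCS amounted to 3.05%, 3.02% and 1.97% in 3D and to 1.37%, 1.37% and 1.54% in 2D. A scaling factor common to a library cancels in both ratios. In neither could the groups overlap, since CYCS was higher in every 3D library and CYC1 and the subunit sum were lower. The separation of the ratios is therefore no further evidence, and no test was run on them. Replicate 3 of 3D had the lowest ratio of its group each time.

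Promoter sequences are shown for CYCS, the gene with the opposite sign, and for 4 of the genes called lower, so that they can be read side by side. Each is the 250 bases before the annotated start (RefSeq, GRCh38.p14), written 5′ to 3′ on the strand of the gene. Capitals mark matches, on either strand, to 4 motifs: the longer NRF1 consensus and its shorter form GCATGCGC, for a factor that controls many respiratory genes, CCGGAAG for ETS factors such as GABP, and TGACGTCA, the cyclic AMP response element. The shorter NRF1 form can lie inside the longer one, so matches to them are not separate.
CYCS (chr7:25125261-25125510, minus strand): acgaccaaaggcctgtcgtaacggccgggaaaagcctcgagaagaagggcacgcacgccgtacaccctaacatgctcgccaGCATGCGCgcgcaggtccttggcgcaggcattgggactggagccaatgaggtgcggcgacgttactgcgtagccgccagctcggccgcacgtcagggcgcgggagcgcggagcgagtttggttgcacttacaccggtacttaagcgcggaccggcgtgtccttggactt
SDHB (chr1:17054033-17054282, minus strand): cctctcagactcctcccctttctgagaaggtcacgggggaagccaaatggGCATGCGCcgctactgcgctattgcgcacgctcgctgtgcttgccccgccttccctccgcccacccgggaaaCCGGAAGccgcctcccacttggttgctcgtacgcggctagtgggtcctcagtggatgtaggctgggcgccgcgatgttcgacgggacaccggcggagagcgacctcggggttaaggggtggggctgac
COX6B1 (chr19:35648073-35648322, plus strand): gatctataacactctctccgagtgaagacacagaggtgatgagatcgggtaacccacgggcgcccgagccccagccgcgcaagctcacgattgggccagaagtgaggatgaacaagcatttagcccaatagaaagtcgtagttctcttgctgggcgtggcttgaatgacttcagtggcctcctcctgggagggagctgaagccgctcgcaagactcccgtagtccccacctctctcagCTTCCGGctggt
ATP5G1 (chr17:48892537-48892786, plus strand): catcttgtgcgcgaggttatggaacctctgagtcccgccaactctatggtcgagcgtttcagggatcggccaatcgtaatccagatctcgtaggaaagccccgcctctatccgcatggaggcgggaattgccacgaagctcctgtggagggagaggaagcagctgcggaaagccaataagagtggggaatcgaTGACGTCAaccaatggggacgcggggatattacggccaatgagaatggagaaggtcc
ATP5L (chr11:118401356-118401605, plus strand): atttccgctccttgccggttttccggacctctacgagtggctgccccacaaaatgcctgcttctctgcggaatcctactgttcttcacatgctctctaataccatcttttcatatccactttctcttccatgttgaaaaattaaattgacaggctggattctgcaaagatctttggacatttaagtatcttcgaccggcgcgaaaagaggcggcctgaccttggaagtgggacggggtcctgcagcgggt

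CYCS and SDHB share the shorter NRF1 form, SDHB also holds an ETS match, COX6B1 an ETS match on the other strand and ATP5G1 a cyclic AMP element, while the ATP5L stretch holds none of the 4. In the full window, which runs 250 bases before to 50 after the start, SDHB has a cyclic AMP element across its start and ATP5L an ETS match after it. Promoters were found for 33 of the 44 tested genes. The longer NRF1 motif was in 9 of the 33 (27.3%), against 12.1% of the 9935 promoters of tested protein-coding genes and 6.28% of all 27305 promoters. The shorter form was in 9 (27.3%, against 5.61% and 3.27%), the ETS motif in 14 (42.4%, against 20.2% and 10.7%) and the cyclic AMP element in 3 (9.09%, against 3.33% and 1.98%). SDHA, the flavoprotein subunit, carried 4 copies of the longer NRF1 motif in its window. These counts describe letters in a window and say nothing of binding.

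Complex V held 3 of the 6 calls and 18 of the 44 tested genes. The share called lower was 16.7% in it, against 13.6% of the 44 and 2.12% of all tested genes. ATP5D (now ATP5F1D), the delta subunit in the central stalk of the catalytic head, had 76.9, 81.9 and 97.5 TPM in 3D and 149.6, 136 and 177 TPM in 2D. The groups were far apart, with means of 85.4 ± 10.7 and 154 ± 21.0 TPM (SD, n = 3 each). By limma the log2 fold change was -0.84 (SE 0.15, adjusted p = 0.0163), the most negative value among the 44 genes. ATP5G1 (ATP5MC1) encodes the c subunit of the rotating membrane ring and had 62.5, 63.2 and 80.7 TPM in 3D against 116, 105 and 147 in 2D (log2 fold change -0.82, SE 0.17, limma adjusted p = 0.0257). ATP5L (ATP5MG), the g subunit of the membrane part, had 288, 284 and 358 TPM in 3D against 424, 444 and 504 in 2D (log2 fold change -0.56, SE 0.15, limma adjusted p = 0.0454). In all 3 genes every 3D library lay below every 2D library, and replicate 3 was the highest of its group in both cultures.

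Every one of the 6 calls was lost when certain single libraries were left out. That of ATP5D was lost on leaving out either of the first 2 libraries of 3D or the first of 2D (adjusted p by limma at most 0.0807 over 18 alternatives). Those of ATP5G1 and CYC1 were lost on leaving out any 1 of the first 2 libraries of either culture, and with no filter on low TPM (adjusted p by limma at most 0.110 and 0.116). Those of ATP5L, SDHB and COX6B1 were lost in 7, 7 and 8 alternatives, which included those same 5 each time (adjusted p by limma at most 0.167, 0.119 and 0.144).

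The other subunits of the catalytic head, tested in the same fit, did not pass. ATP5B (ATP5F1B), the catalytic beta subunit and the most abundant gene of complex V, had 463, 454 and 514 TPM in 3D and 558, 648 and 699.6 in 2D, again with no overlap (log2 fold change -0.41, SE 0.14, limma adjusted p = 0.0913). ATP5A1, ATP5C1 and ATP5E, the alpha, gamma and epsilon subunits, had log2 fold changes of -0.33, -0.46 and -0.49, each with separate groups. Levels of the head subunits were uneven on the TPM scale, with a mean of 635 ± 71.5 TPM for ATP5B, 258 ± 17.2 for ATP5A1 and 124 ± 9.57 for ATP5C1 in 2D. Among the 15 subunits of complex V all had negative values, from -0.84 to -0.24 with a median of -0.46. Of them 11 (73.3%) had separate groups, against 9.4% of all tested genes with 3D lower. The subunits that overlapped were ATP5G2, ATP5H, ATP5J and ATP5J2.

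The c subunit is made from 3 genes that differ in their import signals and give the same mature protein. ATP5G2 (ATP5MC2) gave the largest share, with 352, 369 and 362 TPM in 3D and 553, 536 and 356 TPM in 2D. It was low in 2D replicate 3, at the level of the 3D libraries, and its adjusted p was 0.199 (limma log2 fold change -0.39, SE 0.19). Without that library it was called lower (log2 fold change -0.59, SE 0.11, limma adjusted p = 0.0219). ATP5G3 (ATP5MC3) had 211, 188 and 273 TPM in 3D and 321, 324.5 and 329 in 2D (log2 fold change -0.55, SE 0.16, limma adjusted p = 0.060). The sum of the 3 genes was 625, 620.2 and 716 TPM in 3D and 989, 965 and 833 in 2D, a change of -29.6% between the means, with no overlap. ATP5G1 made up 10.0%, 10.2% and 11.3% of that sum in 3D and 11.7%, 10.9% and 17.7% in 2D, so its share overlapped between the cultures.

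**Figure D3:**
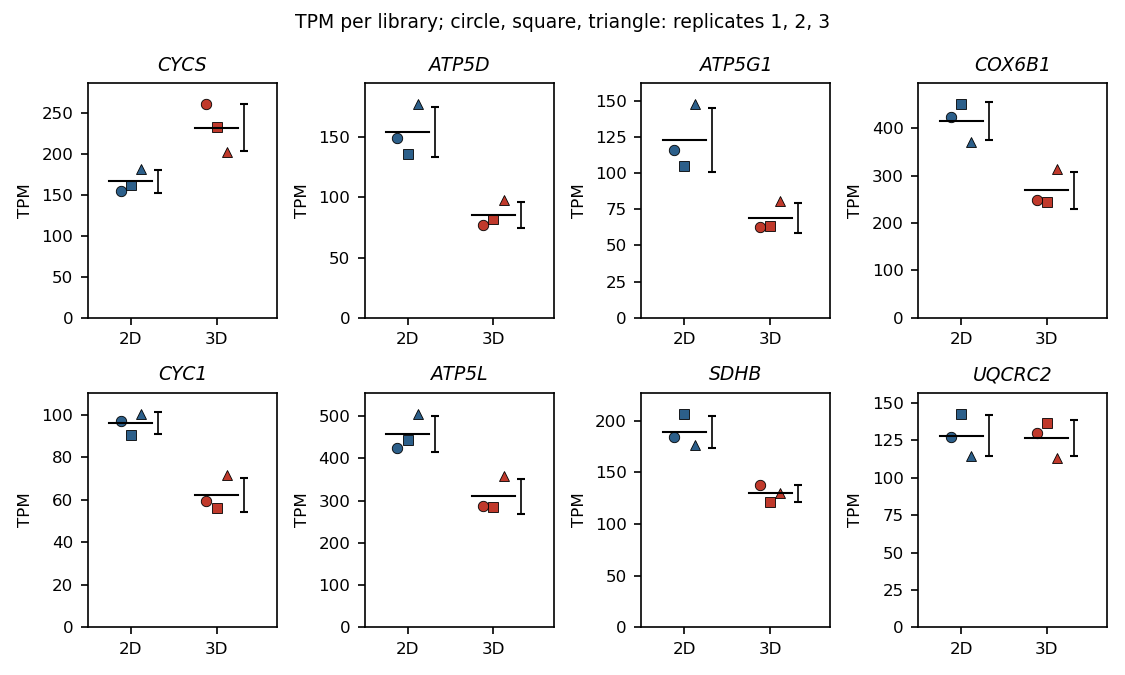
TPM on linear axes from 0 in each library for CYCS, the 6 genes called lower and UQCRC2; bars are group means and the whiskers beside them 1 SD (n = 3). CYCS is higher in 3D in every library, the 6 called genes are lower in every library, and UQCRC2 overlaps.

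Complex IV had 1 call among 11 tested genes. COX6B1 (ENSG00000126267, chr19:35648223-35658861, plus strand), a small subunit on the side where cytochrome c docks, had 248, 245 and 314 TPM in 3D against 425, 451 and 372 in 2D (log2 fold change -0.63, SE 0.15, limma adjusted p = 0.0363). COX7B, another small subunit, had a larger difference, with 225, 171 and 280.5 TPM in 3D and 329, 359 and 397 in 2D, and missed the threshold (log2 fold change -0.70, SE 0.19, limma adjusted p = 0.0536). It was called in 8 of 18 alternatives, among them both rescalings. COX4I1, a regulatory subunit that binds ATP, had 378, 338 and 412 TPM in 3D and 526, 499 and 488 in 2D (limma adjusted p = 0.0687). COX7C was the most abundant of all 52 genes at 1057, 911 and 1179 TPM in 3D and 1212, 1395 and 1173 in 2D, where the groups overlapped (log2 fold change -0.27, SE 0.15, limma adjusted p = 0.268).

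The 10 subunits of complex IV that are used in most tissues had log2 fold changes from -0.70 to -0.14 with a median of -0.43, and 5 had separate groups. COX6A1, the form of subunit 6A outside muscle, had 395, 326 and 493 TPM in 3D and 552, 523 and 479 in 2D, with replicate 3 of 3D inside the 2D range (limma adjusted p = 0.184). COX7A2 had the value nearest 0, with 363, 369 and 514 TPM in 3D and 468, 485.5 and 405 in 2D. COX7A2L, a relative of it that joins complexes III and IV into supercomplexes, had 149.96, 149 and 145 TPM in 3D and 173, 181 and 127 in 2D, and also overlapped. Here 2D replicate 3 was the lowest of all 6 libraries. NDUFA4, a complex IV subunit named for complex I and so outside the rule, had 202, 203 and 296 TPM in 3D and 255, 273 and 248 in 2D (limma adjusted p = 0.541).

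None of the tissue-restricted forms of complex IV passed the filter. COX4I2, the lung form of subunit 4 that low oxygen can induce, was listed at 0.1 TPM in 3D replicate 3 and at 0 in the other 5 libraries. The heart and muscle forms COX6A2 and COX7A1 were at 0 and at most 0.2 TPM, and the testis forms COX7B2 and COX8C at most 0.11 and 0.33 TPM. COX6B2, the testis form of COX6B1, had 0.39, 1.9 and 0.22 TPM in 3D and 0.07, 0.03 and 0.6 in 2D, with the highest value in 1 library. The other 2 untested genes were ATP5EP2 and ATP5L2, copies of ATP5E and ATP5L, at no more than 0.88 TPM. NDUFA4L2, a relative of NDUFA4 that low oxygen induces, is outside the rule and moved the other way, from 0.58, 0.67 and 0.4 TPM in 2D to 3.77, 8.04 and 11.9 in 3D (log2 fold change 2.41, SE 0.35, limma adjusted p = 0.00835). With means of 0.55 TPM in 2D and 7.89 in 3D, it passed the filter only through the 3D libraries, which limits what its call can show.

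Complex III had 1 call among 10 tested genes, CYC1 (ENSG00000179091), which carries the heme that reduces cytochrome c. It had 59.4, 56.1 and 71.6 TPM in 3D and 97.4, 90.35 and 100.4 in 2D (log2 fold change -0.62, SE 0.14, limma adjusted p = 0.0281). UQCRFS1, the Rieske iron-sulfur protein that passes electrons to CYC1, had 24.8, 23.3 and 24.2 TPM in 3D and 32.4, 33.8 and 31.7 in 2D (log2 fold change -0.42, SE 0.11, limma adjusted p = 0.0532). UQCRH, the hinge protein and the most abundant subunit of the complex, had 455, 403 and 545 TPM in 3D and 577, 616 and 604 in 2D, apart but not called (limma adjusted p = 0.135). The 2 core proteins were not compared with each other by a test. UQCRC1 had 164, 154 and 209 TPM in 3D and 236, 202 and 225 in 2D (log2 fold change -0.34, SE 0.15, limma adjusted p = 0.173), while UQCRC2 had 129.9, 136 and 113 in 3D and 127, 142 and 115 in 2D (log2 fold change -0.02, SE 0.14, limma adjusted p = 0.945). The sign of UQCRC2 depended on the setting. The 9 subunits of complex III had a median of -0.37, and 4 (44.4%) had separate groups, against 9.4% of all tested genes with 3D lower.

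Complex II had 1 call among 4 genes. SDHB (ENSG00000117118, chr1:17018722-17054170, minus strand), the iron-sulfur subunit, had 138, 121 and 130.2 TPM in 3D and 185, 206 and 176 in 2D (log2 fold change -0.54, SE 0.12, limma adjusted p = 0.0325). SDHA, which holds the FAD and the site that oxidises succinate, had 94.0, 97.4 and 99.0 TPM in 3D and 134, 120.3 and 125 in 2D, separate but above the threshold (log2 fold change -0.38, SE 0.11, limma adjusted p = 0.0673). Its 3 named pseudogenes took 15.6 to 21.6 TPM in 3D and 19.9 to 42.0 in 2D, 18.8% of the sum of gene and copies, so its own level is less certain. The membrane anchors SDHC and SDHD had log2 fold changes of -0.24 and -0.28; SDHC reached 205 TPM in 3D replicate 3, above every 2D library. The summed TPM of the 4 genes was 499.7, 449 and 548 in 3D and 631, 653 and 629 in 2D.

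Summed by complex, the nuclear subunits changed between the group means by -21.8% for complex II, -22.3% for complex III, -22.9% for complex IV and -27.0% for complex V, and no sum overlapped between the groups. The means of the subunits from the mitochondrial genome had the opposite sign. MT-CYB, the cytochrome b of complex III, had 8250, 8786 and 4408 TPM in 3D and 4833, 4641 and 5809 in 2D. The 3 mitochondrial genes of complex IV summed to 63056, 62501 and 43646 TPM in 3D and to 44699, 43324 and 53698 in 2D. For both sums 3D replicates 1 and 2 were above every 2D library and replicate 3 was not. For complex III the ratio of mitochondrial to nuclear TPM was 5.08, 6.05 and 2.20 in 3D and 2.25, 2.09 and 2.68 in 2D. For complex IV it was 18.5, 20.8 and 10.5 against 9.88, 9.12 and 12.2, and for complex V 8.43, 9.52 and 4.07 against 3.71, 3.12 and 4.26. Replicate 3 of 3D thus lay within the 2D range in all 3 complexes, and the other 3D libraries lay above it.

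**Figure D4:**
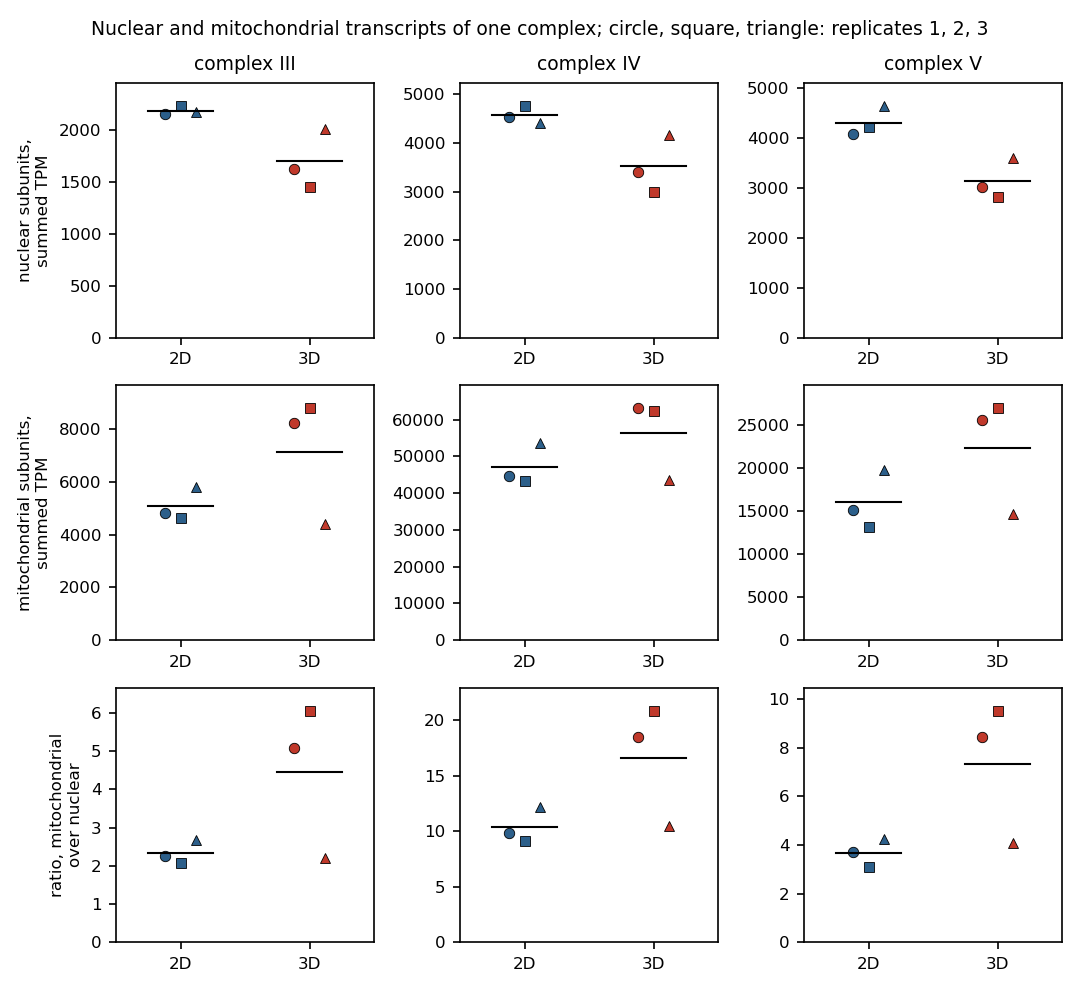
Summed TPM of the nuclear subunits (top row), of the subunits from the mitochondrial genome (middle row) and their ratio within each library (bottom row) for complexes III, IV and V; points are libraries, bars are group means and axes start at 0. Nuclear sums are lower in 3D in every library, whereas mitochondrial sums and ratios of 3D replicates 1 and 2 are above every 2D library; in replicate 3 they are within the 2D range, apart from the complex III sum, which is below it.

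None of the 13 protein-coding genes of the mitochondrial genome passed the test, by adjusted p or by unadjusted p under 0.05 (limma); all 13 had positive values, with a median of 0.36. MT-CO1 and MT-CO2, the most abundant of them, had limma log2 fold changes of 0.22 (SE 0.21) and 0.13 (SE 0.23). Poly(A) selection was used for these libraries, and its part in the levels of mitochondrial transcripts was not tested. The share of all TPM taken by genes of the mitochondrial genome was 19.4%, 19.4% and 12.3% in 3D and 14.4%, 15.7% and 17.5% in 2D. With those genes left out and the rest rescaled, 8 of the 44 respiratory genes fell, none rose, and the median was -0.40. Over all 15549 genes tested in that fit, 330 fell, 1502 rose and the median was 0.15.

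Related genes were counted in lists. Beside the calls in them, 2.12% of all tested genes were called lower and 10.2% higher. Counts by unadjusted p have no such background here. Of 37 complex I genes, 4 fell, none rose (limma; by unadjusted p under 0.05, 16 were lower and 1 was higher) and 33 did not pass, with a median of -0.29. NDUFA1 had 106 ± 12.6 TPM in 3D and 162 ± 6.03 in 2D (limma adjusted p = 0.0267), and NDUFS7, which holds an iron-sulfur cluster, 39.1 ± 6.55 and 63.4 ± 5.81 (limma adjusted p = 0.031; SD, n = 3 each). Of 14 genes of the citric acid cycle 2 fell, none rose and 12 did not pass, with a median of -0.24. They were the adjacent enzymes MDH2, malate dehydrogenase, with 180 ± 5.03 TPM in 3D and 276 ± 18.6 in 2D (limma adjusted p = 0.0185), and FH, fumarase, with 65.8 ± 5.14 and 95.2 ± 2.12 (limma adjusted p = 0.0295). Of the 4 carriers of phosphate and adenine nucleotides that supply ATP synthase, 1 fell: SLC25A5, an ADP/ATP carrier, with 627, 549 and 617 TPM in 3D and 1040, 1060 and 1144 in 2D (log2 fold change -0.86, SE 0.13, limma adjusted p = 0.00894).

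Assembly factors and regulators of respiratory gene transcription differed less by their medians. Of 41 assembly factors of complexes II to V 2 fell, where 2.12% of all tested genes did. None rose and 39 did not pass, with a median of -0.12. The 2 lower genes were UQCC2, at 82.0 ± 11.5 TPM in 3D and 124 ± 8.33 in 2D (limma adjusted p = 0.0364), and BCS1L, at 26.4 ± 2.55 and 40.4 ± 5.56 (limma adjusted p = 0.0433, SD, n = 3 each). Both serve complex III. Of 10 tested regulators of respiratory gene transcription none passed (limma; 1 was higher and none lower by unadjusted p under 0.05), with a median of 0.14. The most abundant, YY1 and ESRRA, had log2 fold changes of 0.21 and -0.10, and NRF1 itself had 7.16 ± 0.913 TPM in 3D and 6.82 ± 1.21 in 2D. PPARGC1A, the best known coactivator of this programme, was listed at no more than 0.06 TPM. Of 19 proteins of mitochondrial import, pores and chaperones none passed (limma; 4 were lower and 1 was higher by unadjusted p under 0.05), with a median of -0.14. Their most abundant members HSPD1 and TOMM7 had -0.29 and -0.05. Of 9 regulators of respiration linked to low oxygen 2 rose, beside the 10.2% of all tested genes that did, and none fell, with a median of 0.53. They were NDUFA4L2, given above, which passed the filter only through its 3D values, and MXI1, a MYC antagonist. MXI1 had 49.3 ± 7.61 TPM in 3D and 24.1 ± 5.97 in 2D (SD, n = 3 each, limma adjusted p = 0.019). In part of this list 2D replicate 3 stood apart, as the highest 2D library. BNIP3, a mitophagy receptor, had 117, 114 and 200.4 TPM in 3D and 66.2, 66.5 and 231 in 2D, where the last value was above every 3D library. Its relative BNIP3L had 116, 105 and 119 TPM in 3D and 57.1, 58.5 and 108.5 in 2D. PDK1, which inhibits pyruvate dehydrogenase, had 25.1, 27.0 and 50.2 TPM in 3D and 13.1, 16.7 and 43.6 in 2D. For BNIP3, BNIP3L and PDK1, replicate 3 was thus also the highest 3D library. MXI1, PDK3 and LONP1 were highest in replicate 3 among the 2D libraries too. By contrast, NDUFA4L2, HIGD1A and ISCU had their lowest 2D values in replicate 3, at 0.4, 47.9 and 58.4 TPM. BNIP3, BNIP3L, PDK1, PDK3, LONP1, HIGD1A and ISCU were named after their values were seen.

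Other ATP synthase genes carry older names and fell outside the rule; they were looked up after the names in the table were seen. ATPIF1, the inhibitor that stops the enzyme from running backwards, had 149, 129 and 188 TPM in 3D and 177, 178 and 217 in 2D (log2 fold change -0.30, SE 0.17, limma adjusted p = 0.261). The small subunits USMG5 and C14orf2 had -0.28 and -0.35 and did not pass either. Conversely, ATP5S and ATP5SL carry the prefix without being among the 15 subunits; their values were -0.33 and -0.13, with overlapping groups. UQCRHL, a copy of UQCRH, and the readthrough gene ATP5J2-PTCD1 had means of 4.38 and 5.48 TPM over the 6 libraries, which depend on how reads were split between near-identical sequences.

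The subunit genes also had short annotated transcripts and, within 3D, a shared order among the libraries. Length was taken per gene as the median over its annotated transcripts in GENCODE 29, not over those expressed here. Its median was 626 bases for the 38 subunits, against 937 over tested genes found there. Across the 38, which are not replicates, this length had a Spearman correlation of 0.015 with fold change. With the log2 ratio of 3D replicate 3 to the other 3D libraries it was -0.43. Over all tested genes the 2 values were 0.15 and -0.07. Of the 38, 32 were highest in replicate 3 and 32 lowest in replicate 2 within 3D. Within 2D the order was mixed: 22 were highest in replicate 3 but 12 were lowest there, and 18 were lowest in replicate 1. This order was not counted over all tested genes. In 3D replicate 3 the typical subunit lay 0.35 log2 units above the mean of the other 3D libraries, against -0.02 over all tested genes. Without that library 13 of the 44 fell and 1, CYCS, rose (limma), while over all tested genes 553 fell and 1610 rose. Without 2D replicate 3, 6 of the 44 and 534 of all tested genes fell. When any other library was left out, 0 to 1 of the 44 and 25 to 76 of all tested genes fell.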

How the data were processed

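Expression was read from a single table that the authors deposited, in TPM for every gene in each of the 6 libraries. The submitters' processing notes name RSEM 1.3.1, STAR 2.7.0d, cutadapt 2.3 and build hg38. No source used here gives the annotation release, the strand setting or any filter; the kit was directional per the labels. In all, 23 of the 44 tested members share exon bases with another gene in GENCODE 29, 17 of them on the opposite strand. Per the labels, poly(A) RNA with an integrity number above 9 was sequenced as single reads of 75 bases. The 15042 genes averaging 1 TPM or more were fitted on log2(TPM + 1) with limma 3.58.1 in R 4.3.3 (eBayes with trend, 3D against 2D, no covariate, two-sided, Benjamini-Hochberg over all tested genes, threshold 0.05). Fold changes are on the log2(TPM + 1) scale and understate those of low genes. The script was tested on simulated data. An exact test of 3 against 3 cannot go below p = 0.1, so no single value was tested alone. The members and lists were chosen with earlier results of these data known. Of each list the 2 called genes with the smallest adjusted p per direction are named, or the 2 most abundant where none was called, with NDUFA4 and NDUFA4L2 always; NRF1 and PPARGC1A were named after their values were seen. Sequences came from RefSeq (GRCh38.p14), matched by symbol.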

Additional observations from a re-analysis of the deposited data

How the results depend on the processing

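Of the 44 tested respiratory genes, all but UQCRC2 kept their sign in each alternative they entered (17 or 18). UQCRC2 was positive at 0.00396 with the mitochondrial genome left out and 0.00343 with protein-coding nuclear genes only, and ranged from -0.0929 to 0.0617 when each library was left out (positive without 3D replicate 3, 0.0611, and without 2D replicate 2). The median of the 44 genes moved by less than the spread between 3D libraries. It lay at -0.57 with median-ratio scaling and -0.46 with quantile normalization, which put the median of all genes at -0.01 and -0.04. Genes of the 44 called lower numbered 6, and 1 with no filter on low TPM, 13 with median-ratio scaling, 10 with quantile normalization and 3 without trend. They numbered 0 to 13 when each library was left out, and 23 without both libraries numbered 3, an analysis chosen after seeing the data; 0 to 1 and 1 were called higher there. Over all genes 1536 were higher and 319 lower, against 729 and 86 with no filter, 971 and 612 with median-ratio scaling and 869 and 576 with quantile normalization. Without trend 1429 were higher and 260 lower. Leaving out each library gave 331 to 1610 higher and 25 to 553 lower, and leaving out both numbered 3 gave 2289 higher and 1239 lower. The cause was not tested. Same-numbered libraries deviated together at correlations of 0.101, 0.036 and 0.185, the last being the largest between any 3D and 2D library. 3D replicate 1 correlated best with 2D replicate 2, at 0.127. With 3 libraries per group, these values cannot decide whether libraries of the same number belong together. With the replicate block, 5 of the 44 fell, none rose (limma), with a median of -0.41: SDHB (adjusted p = 0.0594) and COX6B1 (0.0606) were not called and COX7B was (0.0418), while 1479 genes were higher and 395 lower over all. Also chosen after seeing the data were a correction for length and GC content and a fit of protein-coding nuclear genes. The first called 8 of the 44 and 282 of all genes lower, without COX6B1 (limma adjusted p = 0.070) and with UQCRFS1, ATP5E and COX7B. The second called 8 and 371, with COX7B and ATP5G3.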
